A study of Mus musculus with 6 samples.

Results

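The paired myeloid immunoglobulin-like receptors were examined in mouse bone marrow-derived macrophages (BMDMs) co-cultured with ID8, a line of mouse ovarian cancer cells. They were taken as the protein-coding genes of the deposited table whose symbols start with Cd300, Lilr, Pira, Pirb, Siglec, Trem or Sirp, with Trem2 left out, which gave 33 of 54532 listed genes. The labels call the cells BMDM, and the study's methods describe marrow monocytes from C57BL/6 mice aged 6 to 8 weeks, collected after co-culture. The cisplatin group (3 libraries) met ID8 cells pretreated with the platinum drug cisplatin at 40 µM, and the PBS group (3 libraries) met ID8 cells given phosphate-buffered saline instead. Both groups were co-cultures, and no BMDM library without tumour cells was analysed here. Nothing in the labels says that the libraries of a group came from separate cultures or animals, so p-values measure only the spread between these samples.

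Receptors of these families sit on macrophages, granulocytes and dendritic cells and come in opposing pairs. Inhibitory members carry immunoreceptor tyrosine-based inhibition motifs (ITIMs) in the cytoplasmic tail, which recruit the phosphatases SHP-1 and SHP-2. Activating members have short tails and reach the cell surface with an adaptor, DAP12 (gene Tyrobp) or the Fc receptor gamma chain (gene Fcer1g), whose activation motifs recruit the kinase Syk. Their ligands include CD47 for SIRPα, MHC class I for PIR-B, exposed phospholipids of dying cells for several CD300 proteins, and sialic acids for the Siglecs.

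Expression was given as FPKM, which divides a gene's fragments by its length and by the size of the library, so levels of different genes can be set side by side. Fold changes are differences of mean log2(FPKM + 1), cisplatin minus PBS, which understate the change of genes with low values. A gene was called when its adjusted p was under 0.05 and its log2 fold change was at least 1 in size. The reads recovered from these values summed to between 15776238 and 17924686 per library. Of the 33 receptor genes, 23 reached 1 FPKM in 3 or more libraries and were tested, and 10 were called higher and 0 lower with cisplatin. Over all 13441 tested genes, 4.67% were called higher and 11.3% were called lower. By the adjusted p alone, 19 of the tested receptor genes were higher and 1 was lower, beside 32.9% and 35.1% of all tested genes. In 19 of the 23 tested receptor genes all 3 cisplatin libraries lay above all 3 PBS libraries and in 1 all 3 lay below, beside 35.2% and 37.2% of all tested genes. The median log2 fold change was 0.91 over the tested receptor genes and -0.0011 over all tested genes. Sirpb1b, Siglecf and Cd300c passed the filter only through the cisplatin libraries (Cd300c reached 1 FPKM in 1 PBS library), so counts over the tested members lean towards genes that were high there.

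The makeup of the RNA differed between the groups, and its part in the receptor results was not tested. In bulk samples, fewer cells of a type and less RNA per cell cannot be told apart. The 12 ID8 and mesothelial markers summed to 1001 to 1077 FPKM in the PBS libraries and to 182 to 196 FPKM in the cisplatin libraries, with 6 of 8 tested genes called lower. Their most abundant gene, Krt19, a keratin, had means of 588 and 51.1 FPKM and made up most of the PBS sum. Cdh1, of the same list, went the other way, from 3.24 to 5.41 FPKM (log2 fold change 0.60, adjusted p = 0.00238). The 8 macrophage markers summed to 1635 to 1647 FPKM with PBS and 4187 to 4341 FPKM with cisplatin, and 3 of 8 were called higher. Most of both sums came from Lyz2, which neutrophils also express (means of 1161 and 3459 FPKM). The called genes were Lyz2, Itgam and Mertk, of which Mertk (means of 0.29 and 1.72 FPKM) passed the filter only through the cisplatin libraries. Neutrophil markers summed to 4727 to 4867 FPKM with PBS and 8461 to 8705 FPKM with cisplatin, with 6 of 10 called higher. Most of both sums came from S100a8 (means of 1423 and 2581 FPKM) and S100a9 (3105 and 5233 FPKM). Ly6g, of the same list, had overlapping groups (2.81 and 3.15 FPKM). Transcripts used as markers of cells other than macrophages were thus present in both groups. Of 11 tested pan-leukocyte genes, which blood cells of many kinds express, all 11 had positive log2 fold changes, with a median of 0.82 and 3 called higher. When libraries were scaled to equal levels of those genes, the median over all tested genes moved to -0.71, 0.811% of all tested genes were called higher and 31.3% lower. Under that scaling 3 receptor genes were called higher (Lilra6, Siglech and Sirpb1b) and 1 lower (Siglec1), with a median log2 fold change of 0.14 over the tested members. The direction and size of each receptor are therefore given on the deposited scale, with the leukocyte-scaled value where the 2 differ in direction or call.

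**Figure D1:**
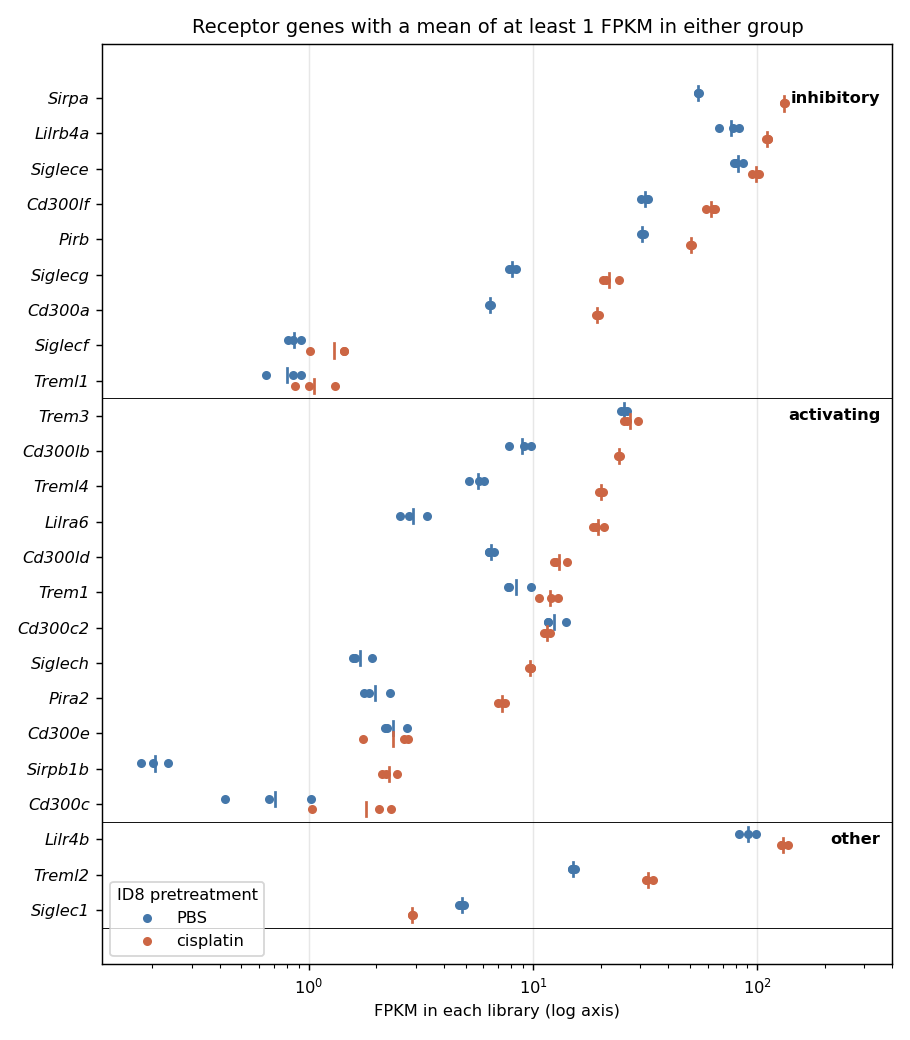
FPKM of the 24 receptor genes with a mean of at least 1 FPKM in either group (log axis), grouped by role, with a point for each of the 3 PBS and 3 cisplatin libraries and a bar at each group's mean. Lilra6, Siglech and Sirpb1b show the widest gaps between the groups, Trem3, Cd300c2, Cd300e and Treml1 overlap, and Siglec1 is lower with cisplatin.

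The inhibitory receptors had the largest summed level of the roles. Of 9 inhibitory genes, 8 were tested, all 8 had positive log2 fold changes (median 0.83), and 3 were called higher: Sirpa, Siglecg and Cd300a. None of these 3 was called when libraries were scaled by pan-leukocyte genes, where Cd300a was at 0.68 and Siglecg at 0.54. The CD47 receptor gene Sirpa (ENSMUSG00000037902, chr2:129592835-129632228, + strand, coordinates on GRCm38 throughout) had 54.2, 54.8 and 54.1 FPKM in the PBS libraries and 131, 131 and 133 FPKM in the cisplatin libraries. Its mean rose from 54.4 ± 0.42 FPKM to 132 ± 1.23 FPKM (SD over 3 libraries in either group). The log2 fold change was 1.26 (SE 0.028, adjusted p = 1.24e-07). The groups were narrow and far apart, and Sirpa went from the fourth most abundant member to the first. On the leukocyte scale its log2 fold change was 0.42 (SE 0.036, adjusted p = 2.05e-05), under the fold change threshold.

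Cd300a (ENSMUSG00000034652, chr11:114890041-114904654, + strand) encodes a receptor for phosphatidylserine and phosphatidylethanolamine on dying cells. Its values were 6.36, 6.46 and 6.41 FPKM with PBS and 19.0, 19.4 and 19.6 FPKM with cisplatin, a rise of 1.46 on the log2 scale (SE 0.039, adjusted p = 2.27e-07). The 2 groups were far apart and each was narrow. Siglecg (ENSMUSG00000030468, chr7:43408204-43418358, + strand) encodes a sialic acid receptor best known for restraining B cell receptor signalling. It had 7.84, 8.36 and 8.04 FPKM with PBS and 20.5, 21.02 and 24.0 FPKM with cisplatin (log2 fold change 1.33, SE 0.066, adjusted p = 3.58e-06). All cisplatin values lay above all PBS values, and replicate 3 was the highest of them. The 6 B cell markers moved alongside, with sums of 217 to 224 FPKM with PBS and 484 to 494 FPKM with cisplatin and 4 of 6 called higher. Their most abundant gene, Cd79b, a chain of the B cell receptor, had means of 79.8 and 178 FPKM, and the part of such transcripts in the Siglecg result was not tested.

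The remaining inhibitory genes passed the adjusted p but not the fold change threshold. Lilrb4a (ENSMUSG00000112148, chr10:51490956-51496611, + strand), the ITIM-bearing gp49B, had 77.6, 83.2 and 67.5 FPKM with PBS and 112, 109 and 111 FPKM with cisplatin (log2 fold change 0.54, SE 0.073, adjusted p = 0.000528). Siglece, the main sialic acid-binding inhibitory receptor of mouse neutrophils and macrophages, had 86.4, 78.5 and 80.4 FPKM with PBS and 94.2, 99.8 and 102 FPKM with cisplatin (log2 fold change 0.27, SE 0.049, adjusted p = 0.00244). Siglece was the second most abundant member with PBS and the fourth with cisplatin. Cd300lf, which binds phosphatidylserine, had 32.0, 32.4 and 30.3 FPKM with PBS and 59.1, 64.4 and 63.2 FPKM with cisplatin, just below the threshold (log2 fold change 0.96, SE 0.046, adjusted p = 3.17e-06). Pirb, the MHC class I receptor, had 31.3, 30.5 and 30.2 FPKM with PBS and 50.6, 49.9 and 51.3 FPKM with cisplatin (log2 fold change 0.70, SE 0.033, adjusted p = 2.59e-06). In all 4 the groups did not overlap. Cd300lf lies across Rab37 on the opposite strand, which had means of 1.43 and 1.43 FPKM, and the strand setting of the counting is not given in the sources used here. On the leukocyte scale the log2 fold changes of Lilrb4a, Siglece and Pirb were negative (-0.31, -0.58 and -0.13) and that of Cd300lf was 0.12. Siglecf, a marker of eosinophils and alveolar macrophages, was near the detection limit, with 0.85, 0.92 and 0.81 FPKM from 35 to 42 reads with PBS and 1.01, 1.44 and 1.43 FPKM from 48 to 66 reads with cisplatin (log2 fold change 0.30, SE 0.11, adjusted p = 0.0497). Its direction flipped on the leukocyte scale (-0.14), while eosinophil markers summed to 89.5 to 94.5 FPKM with PBS and 52.0 to 58.0 FPKM with cisplatin, led by Prg2, the eosinophil major basic protein (means of 63.4 and 34.6 FPKM). Of 7 tested eosinophil markers, 1 was called higher (Alox15, a lipoxygenase, from 1.25 to 6.50 FPKM) and 2 lower. Treml1, a receptor of platelet granules, was not tested and had overlapping groups at 0.64 to 0.92 FPKM and 0.86 to 1.30 FPKM. Platelet markers meanwhile summed to 29.0 to 34.7 FPKM with PBS and 258 to 283 FPKM with cisplatin, led by the chemokine gene Pf4 (means of 16.99 and 205 FPKM). Of 6 tested platelet markers, 3 were called higher and 0 lower, and Gp1bb was listed at 0 in every library.

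Activating receptors were less abundant and held the largest changes. Of 16 activating genes, 12 were tested, 6 were called higher and 0 lower, and the median log2 fold change of the 12 was 1.13. The largest fold change of all members was that of Lilra6 (ENSMUSG00000030427, chr7:3908280-3915503, - strand), a PIR-A type gene of the PIR cluster whose products pair with the Fc receptor gamma chain. Lilra6 had 2.54, 3.37 and 2.79 FPKM with PBS and 20.6, 18.5 and 19.0 FPKM with cisplatin, resting on 132 to 160 and 925 to 1071 reads. Its mean was 6.69 times as high with cisplatin (log2 fold change 2.39, SE 0.088, adjusted p = 8.73e-07), and it was called on the leukocyte scale too (1.66, SE 0.10, adjusted p = 3.51e-06). Its neighbour Pira2 (ENSMUSG00000089942, chr7:3836812-3845051, - strand) had 2.30, 1.85 and 1.77 FPKM with PBS and 6.96, 7.49 and 7.24 FPKM with cisplatin (log2 fold change 1.47, SE 0.082, adjusted p = 6.28e-06), and 0.81 on the leukocyte scale, where it was not called. In both genes the lowest cisplatin library was more than 3 times the highest PBS library.

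Reads of the PIR genes can be shared. Of the 50-base windows in the annotated transcripts of Pira2, 93% also occurred in transcripts of another gene, most often Gm15922, and 31.3% of those of Lilra6 and 34% of those of Pirb did so. How reads that match several genes were counted is not given in the sources used here, so the split between these genes is uncertain. Gm15922 and Gm14548, named here after their values were seen because they share the most windows with Pira2 and Pirb, had means of 2.41 and 2.44 FPKM with PBS and of 4.44 and 13.2 FPKM with cisplatin.

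Promoter sequence was compared because Lilra6, Pira2 and Pirb are related genes of the PIR cluster, of which the first 2 were called and Pirb was not. In the RefSeq promoter windows (250 bases before to 50 after the annotated start, GRCm38.p6), those of Pira2 and Lilra6 were 95% identical, and Pirb was 80.5% identical to Pira2 and 78.5% to Lilra6. All 3 held the letters GAGGAAGT, the core bound by PU.1, an ETS factor of myeloid cells, and these letters are in capitals in the following stretches, which are written 5′ to 3′ on the strand of the gene. The stretches lie at chr7:3720465-3720532 (Pirb), chr7:3845162-3845229 (Pira2) and chr7:3915614-3915681 (Lilra6), all on the - strand, with the first capital 120, 148 and 150 bases before the annotated start. Cd300ld, an activating CD300 gene with the same letters 143 bases before its start (chr11:114989992-114990059, - strand), is shown for comparison.
Pirb: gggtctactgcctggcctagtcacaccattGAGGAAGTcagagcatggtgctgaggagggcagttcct
Pira2: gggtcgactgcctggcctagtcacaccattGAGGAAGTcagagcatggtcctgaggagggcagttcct
Lilra6: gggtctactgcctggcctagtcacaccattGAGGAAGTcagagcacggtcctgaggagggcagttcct
Cd300ld: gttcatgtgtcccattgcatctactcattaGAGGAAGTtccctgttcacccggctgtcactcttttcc
The 3 PIR stretches differ at a few letters. Whether promoter sequence bears on the fold changes was not tested.

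Promoter windows were found for 25 of the 33 receptor genes. On either strand, GAGGAAGT occurred in the windows of 8 of the 25 (Cd300ld, Cd300ld3, Cd300ld4, Cd300ld5, Cd300lf, Lilra6, Pira2 and Pirb), or 32%, and in 3.20% of all 32851 windows. Several of these are copies of one another: those of Cd300ld4 and Cd300ld5 were 100% identical and that of Cd300ld3 was 95% identical to both, so the 8 are not independent. Of the 5 tested genes among the 8, Lilra6 and Pira2 were called higher and Pirb, Cd300lf and Cd300ld were not. The letters AANNGAAA, the core bound by interferon regulatory factors, occurred in 10 of the 25, or 40%, and in 23.9% of all windows. The STAT-type letters TTCNNNGAA occurred in 8 of the 25 (Cd300e, Lilr4b, Lilra5, Siglech, Sirpb1a, Sirpb1b, Sirpb1c and Trem1) and in 8.30% of all windows. Related windows recur in these sets too. The 10 with AANNGAAA include Cd300ld3, Cd300ld4 and Cd300ld5, and the window of Sirpb1c was 74.5% identical to that of Sirpb1b and 67.3% to that of Sirpb1a. The genes of either set are therefore not independent. A match describes these letters only, and binding was not measured.

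Siglech (ENSMUSG00000051504, chr7:55768178-55778925, + strand), a DAP12-coupled endocytic receptor best known from plasmacytoid dendritic cells, had the second largest fold change. Its values were 1.90, 1.58 and 1.60 FPKM with PBS and 9.75, 9.58 and 9.77 FPKM with cisplatin (log2 fold change 1.99, SE 0.066, adjusted p = 5.61e-07). The groups stood well apart, and on the leukocyte scale Siglech was still called, at 1.33 (SE 0.068, adjusted p = 1.30e-06). Of 7 tested plasmacytoid dendritic cell markers, 1 was called higher (the chemokine receptor gene Ccr9, from 0.62 to 4.22 FPKM) and 1 lower (Bst2, from 393 to 112 FPKM). Of the 7, 6 had positive log2 fold changes, with a median of 0.51 over the 7. Ccr9 and Klk1, both among the positive genes, passed the filter only through the cisplatin libraries. The summed level of the list was 572 to 636 FPKM with PBS and 450 to 454 FPKM with cisplatin, and most of the PBS sum came from Bst2. The part of such transcripts in the Siglech result was not tested.

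Treml4 (ENSMUSG00000051682, chr17:48264295-48275360, + strand) encodes a DAP12-coupled receptor that binds late apoptotic cells. It had 5.74, 6.04 and 5.17 FPKM with PBS and 20.2, 19.7 and 20.5 FPKM with cisplatin (log2 fold change 1.67, SE 0.059, adjusted p = 7.50e-07). Trem1, which amplifies inflammatory signals in neutrophils and monocytes, had 7.69, 9.77 and 7.81 FPKM with PBS and 12.9, 12.1 and 10.7 FPKM with cisplatin, below the fold change threshold (log2 fold change 0.45, SE 0.10, adjusted p = 0.00663). Trem1 was thus 1.34 to 1.62 times as abundant as Treml4 in the PBS libraries and 0.52 to 0.64 times as abundant in the cisplatin libraries. Trem3, another DAP12-coupled member next to Trem1, had 25.3, 24.5 and 26.1 FPKM with PBS and 26.2, 25.5 and 29.4 FPKM with cisplatin, and did not pass the test (log2 fold change 0.09, SE 0.059, adjusted p = 0.223). On the leukocyte scale Treml4 was at 0.89 and not called, and Trem1 and Trem3 had negative log2 fold changes (-0.32 and -0.73).

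Among the activating CD300 genes, Cd300lb was the member called higher. Cd300lb (ENSMUSG00000063193, chr11:114922781-114934386, - strand), whose product signals through DAP12, had 9.07, 9.77 and 7.83 FPKM with PBS and 24.0, 24.5 and 24.2 FPKM with cisplatin (log2 fold change 1.36, SE 0.074, adjusted p = 5.83e-06). Cd300ld, a partner of the Fc receptor gamma chain, had 6.37, 6.72 and 6.36 FPKM with PBS and 14.2, 12.4 and 12.6 FPKM with cisplatin, under the threshold on the log2(FPKM + 1) scale although its mean was 2.02 times as high (log2 fold change 0.91, SE 0.062, adjusted p = 1.65e-05). On the leukocyte scale neither was called (0.56 and 0.14).

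Cd300c rested on few reads, 8 to 17 with PBS and 18 to 42 with cisplatin, and had 0.42, 1.02 and 0.67 FPKM and 2.32, 1.03 and 2.05 FPKM (log2 fold change 0.70, SE 0.22, adjusted p = 0.0259). Its groups nearly touch, at 17 and 18 reads. Cd300c2 had 11.7, 11.6 and 14.01 FPKM with PBS and 11.2, 11.5 and 11.9 FPKM with cisplatin, and Cd300e had 2.73, 2.18 and 2.22 FPKM and 2.65, 1.75 and 2.76 FPKM. Both had overlapping groups and did not pass the test (log2 fold changes -0.10 and -0.0082, adjusted p = 0.277 and 0.963). The sign of the Cd300e value changed with the scaling and with the library left out.

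Sirpb1b (ENSMUSG00000095028, chr3:15495751-15575065, - strand), a DAP12-coupled relative of SIRPα, was close to undetected with PBS. It had 0.24, 0.18 and 0.20 FPKM from 12, 8 and 9 reads with PBS and 2.21, 2.12 and 2.48 FPKM from 108, 100 and 118 reads with cisplatin. Its mean was thus 11.1 times as high with cisplatin, the largest ratio of the tested members, and its log2 fold change was 1.44 (SE 0.095, adjusted p = 1.45e-05) and 1.07 on the leukocyte scale, where it was also called. Of its 50-base windows, 58% also occurred in other genes, mostly Sirpb1c. Sirpb1a and Sirpb1c stayed under 1 FPKM and were not tested, with 2 to 9 and 3 to 15 reads with PBS and 29 to 33 and 43 to 48 reads with cisplatin. In all 3 genes of this cluster the cisplatin libraries lay above the PBS libraries, beside 35.2% of all tested genes. Of the windows of Sirpb1a and Sirpb1c, 40.4% and 51.9% also occurred in other genes, mostly of this cluster. How reads that match several genes were counted is not given, so the 3 are not independent. The genes overlapping Sirpb1b, Cd300lb and Trem1 (Gm37468, Gm11699 and AC241601.2) had means of at most 0.70, 2.15 and 0.68 FPKM in either group.

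**Figure D2:**
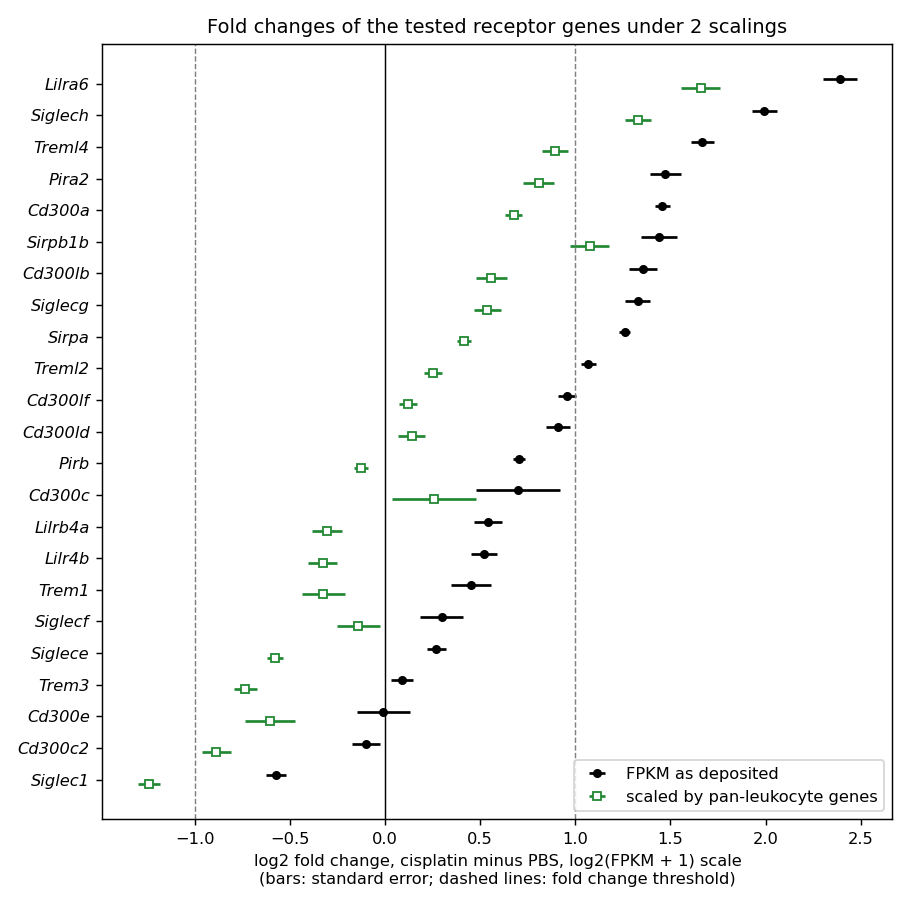
Log2 fold changes of the 23 tested receptor genes, cisplatin minus PBS, on the log2(FPKM + 1) scale with standard errors, from the FPKM as deposited (black) and after scaling by pan-leukocyte genes (green), with dashed lines at the fold change threshold. On the deposited scale 10 genes lie beyond 1, and on the leukocyte scale Lilra6, Siglech and Sirpb1b do, while Siglec1 lies below -1.

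The members without an assigned inhibitory or activating role included 1 call, Treml2. Treml2 (ENSMUSG00000071068, chr17:48299498-48312533, + strand), found on B cells, neutrophils and macrophages, had 14.97, 15.3 and 14.8 FPKM with PBS and 31.9, 32.1 and 34.1 FPKM with cisplatin (log2 fold change 1.07, SE 0.041, adjusted p = 1.09e-06, and 0.25 on the leukocyte scale). Lilr4b (ENSMUSG00000112023, chr10:51480632-51486703, + strand), gp49A, which lacks the ITIMs of its neighbour Lilrb4a, had 90.95, 98.8 and 83.0 FPKM with PBS and 137, 128 and 127 FPKM with cisplatin (log2 fold change 0.52, SE 0.067, adjusted p = 0.000408, and -0.33 on the leukocyte scale). Its fold change was nearly that of Lilrb4a. The 2 genes share sequence, with 24.5% of the windows of Lilr4b and 47.2% of those of Lilrb4a found in other genes, and both overlap Gm49339, which had at most 0.12 FPKM in any library. Together they made up 32.8% to 36.8% of the summed receptor FPKM with PBS and 28.8% to 30.4% with cisplatin.

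Siglec1 (ENSMUSG00000027322, chr2:131069220-131086765, - strand), sialoadhesin, a sialic acid receptor of tissue macrophages with no known inhibition motif, was the member with lower values. It had 4.91, 4.77 and 4.69 FPKM with PBS and 2.90, 2.87 and 2.92 FPKM with cisplatin (log2 fold change -0.57, SE 0.054, adjusted p = 8.17e-05). The groups did not overlap, the difference was under the fold change threshold on the deposited scale, and on the leukocyte scale Siglec1 was called lower at -1.24 (SE 0.057, adjusted p = 8.23e-07). The remaining untested members, Siglec15, Cd300ld2, Cd300ld3, Cd300ld4, Cd300ld5, Cd300lg and Lilra5, stayed at or below 0.57 FPKM and 8 reads in every library. They were left out of the test by the filter. In Cd300ld2 and Cd300lg all cisplatin FPKM values lay above all PBS values, on at most 4 reads, and in Cd300lg the groups tied at 2 reads. Cd300ld3, Cd300ld4 and Cd300ld5 shared 82.1%, 93.8% and 100% of their windows with other genes.

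The clusters were not uniform. The Cd300 cluster on chromosome 11 held 11 of the genes in 244 kb, and its 2 called genes, Cd300a and Cd300lb, were neighbours at one end, of opposite role and on opposite strands. Further in, Cd300c2 and Cd300e did not pass the test, and Cd300lf at the other end was just under the threshold. In the Trem cluster on chromosome 17 (5 genes in 134 kb), Treml4 and Treml2 were called, whereas Trem1 and Trem3, which lie 853 bases apart, were not. In the PIR cluster on chromosome 7 (204 kb), the log2 fold changes were 0.70 for Pirb, 1.47 for Pira2 and 2.39 for Lilra6.

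**Figure D3:**
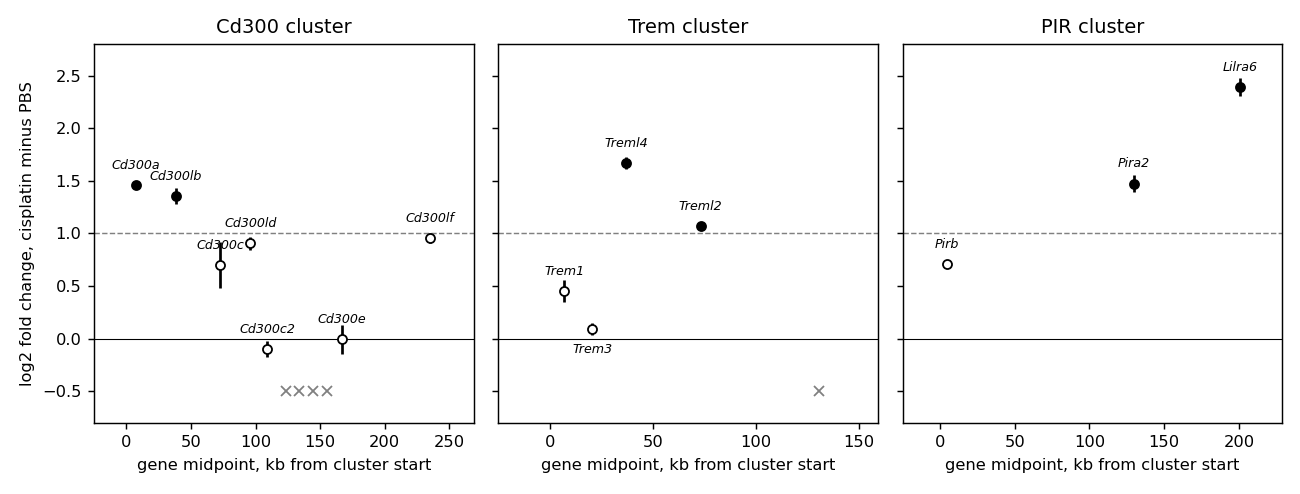
Log2 fold change of each tested gene (cisplatin minus PBS, bars are standard errors) against its midpoint in kb from the start of the Cd300, Trem and PIR clusters. Filled points are genes called higher, open points tested genes that were not called, crosses genes not tested (drawn at a fixed height), and the dashed line the fold change threshold; called and uncalled genes stand side by side in all 3 clusters.

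Summed over each role, the inhibitory receptors had 297, 296 and 279 FPKM in the PBS libraries and 488, 498 and 507 FPKM in the cisplatin libraries. The activating receptors had 76.4, 79.2 and 77.1 FPKM with PBS and 155, 148 and 154 FPKM with cisplatin. Inhibitory transcripts therefore prevailed in every library, at 79.6%, 78.9% and 78.3% of the 2 roles together with PBS and 75.9%, 77.1% and 76.6% with cisplatin. The shares did not overlap between groups, although they differed by only a few percentage points. Lilr4b, with means of 90.9 FPKM with PBS and 130 FPKM with cisplatin, was assigned to neither role and enters neither sum. The shares therefore depend on that assignment, and whether the groups stay apart with Lilr4b counted in a role was not tested. A ratio within a library does not depend on how libraries are scaled. The inhibitory sums were mostly Sirpa, Siglece and Lilrb4a, and the activating gene with the highest mean in both groups was Trem3.

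**Figure D4:**
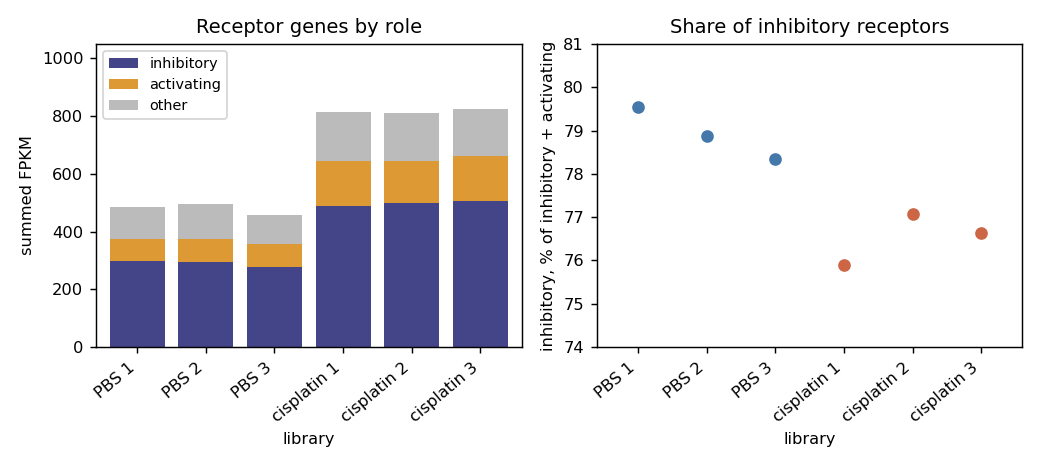
Left, summed FPKM of inhibitory, activating and other receptor genes in each library, with the full stack at 458 to 494 FPKM with PBS and 809 to 826 FPKM with cisplatin. Right, the share of inhibitory receptors in the sum of inhibitory and activating receptors (axis from 74% to 81%), which lies at 78.3% to 79.6% with PBS (blue) and 75.9% to 77.1% with cisplatin (orange).

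The signalling partners of the receptors were followed in a list of 40 genes, of which 38 were tested, 6 called higher and 3 lower (median log2 fold change 0.52). The 2 adaptors diverged. Tyrobp, which encodes DAP12, had 120, 124 and 132 FPKM with PBS and 258, 271 and 287 FPKM with cisplatin, a rise of 1.11 on the log2 scale (SE 0.054, adjusted p = 3.31e-06). Fcer1g, the Fc receptor gamma chain gene, had 424, 381 and 416 FPKM with PBS and 421, 439 and 440.5 FPKM with cisplatin, with overlapping groups (log2 fold change 0.09, SE 0.048, adjusted p = 0.126). Within a library the ratio of the adaptors does not depend on scaling, and Fcer1g remained the more abundant in all 6. Hcst, the DAP10 adaptor gene, had means of 4.48 and 7.59 FPKM and was not called (log2 fold change 0.64, adjusted p = 0.00198). On the leukocyte scale no gene of the list was called higher and 5 were called lower, and Tyrobp was at 0.26 and Fcer1g at -0.76.

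Downstream, the kinase gene Syk had means of 62.9 and 97.3 FPKM (log2 fold change 0.62, adjusted p = 5.66e-06), and the SHP-1 gene Ptpn6 134 and 189 FPKM (0.49, adjusted p = 1.93e-05). The SHP-2 gene Ptpn11 had 30.3, 30.3 and 33.3 FPKM with PBS and 23.7, 26.1 and 25.5 FPKM with cisplatin (log2 fold change -0.31, SE 0.055, adjusted p = 0.00218). Inpp5d, the leukocyte lipid phosphatase SHIP1, had means of 17.5 and 34.5 FPKM (0.94, adjusted p = 1.39e-05). None of these 4 was called on the deposited scale, and the log2 fold changes of Syk and Ptpn6 were negative on the leukocyte scale (-0.22 and -0.36), where Ptpn11 was called lower (-1.13). The 3 largest changes of the list were falls: Inppl1, the broadly expressed SHIP2, went from a mean of 32.6 to 7.89 FPKM (log2 fold change -1.92, adjusted p = 2.49e-07), and the kinase genes Src and Yes1 from 12.8 to 3.89 FPKM (-1.50, adjusted p = 1.34e-05) and from 5.36 to 1.26 FPKM (-1.50, adjusted p = 4.43e-06). Most tested ID8 markers were lower in the same libraries, and the part of ID8 RNA in these falls was not tested.

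Of 26 ligand genes and genes of ligand proteins, 22 were tested, 3 were called higher and 5 lower, and the median log2 fold change was -0.47. Cd47, the ligand gene of Sirpa, had 103, 106 and 108 FPKM with PBS and 63.7, 58.8 and 58.4 FPKM with cisplatin, below the fold change threshold (log2 fold change -0.80, SE 0.044, adjusted p = 6.28e-06). On the leukocyte scale Cd47 was called lower (-1.64). Sirpa was 0.53, 0.52 and 0.50 times as abundant as Cd47 in the PBS libraries and 2.05, 2.22 and 2.28 times as abundant in the cisplatin libraries, a reversal of order that holds under any factor applied to a whole library. Which cells carried either transcript cannot be told apart in bulk RNA. The largest changes among ligands were a rise of Thbs1, the CD47-binding thrombospondin, from a mean of 136 to 930 FPKM (log2 fold change 2.76, adjusted p = 3.02e-08), and falls of Clu, clusterin, from 121 to 10.7 FPKM (-3.38, adjusted p = 4.49e-08) and of the adhesion molecule gene Vcam1 from 18.4 to 2.42 FPKM (-2.50, adjusted p = 2.57e-07). Thbs1 was the 1 ligand gene called higher on the leukocyte scale (1.91), where 13 were called lower. Sftpa1, a surfactant protein gene, was listed at 0 in every library.

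The genes that make, transfer and remove sialic acid, the Siglec ligand, numbered 34, of which 21 were tested, 1 was called higher and 5 lower (median log2 fold change -0.34). The 3 largest changes were falls of sialyltransferase genes. St6gal1, which forms the α2,6 linkage on N-glycans, had 57.9, 58.4 and 59.1 FPKM with PBS and 12.5, 11.1 and 11.8 FPKM with cisplatin (log2 fold change -2.22, SE 0.046, adjusted p = 1.01e-07). St6galnac6 went from a mean of 12.8 to 4.50 FPKM (-1.33, adjusted p = 1.53e-06), and St3gal5, the ganglioside GM3 synthase, from 33.6 to 13.3 FPKM (-1.28, adjusted p = 4.64e-07). Most tested ID8 markers were lower in the same libraries, and the part of ID8 RNA in these falls and in those of the ligand genes was not tested. All 3 sialyltransferase genes were called lower on the leukocyte scale as well, where the list had 11 genes called lower and 0 higher. St6gal2 and St8sia5 were listed at 0 in every library. The sums of the list were 309 to 313 FPKM with PBS and 200.2 to 205.6 FPKM with cisplatin. Of the 21 tested genes, 7 had positive log2 fold changes, and the 1 called higher was Npl, a sialic acid lyase (log2 fold change 1.20, adjusted p = 0.000178, and 0.62 on the leukocyte scale, where it was not called).

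**Figure D5:**
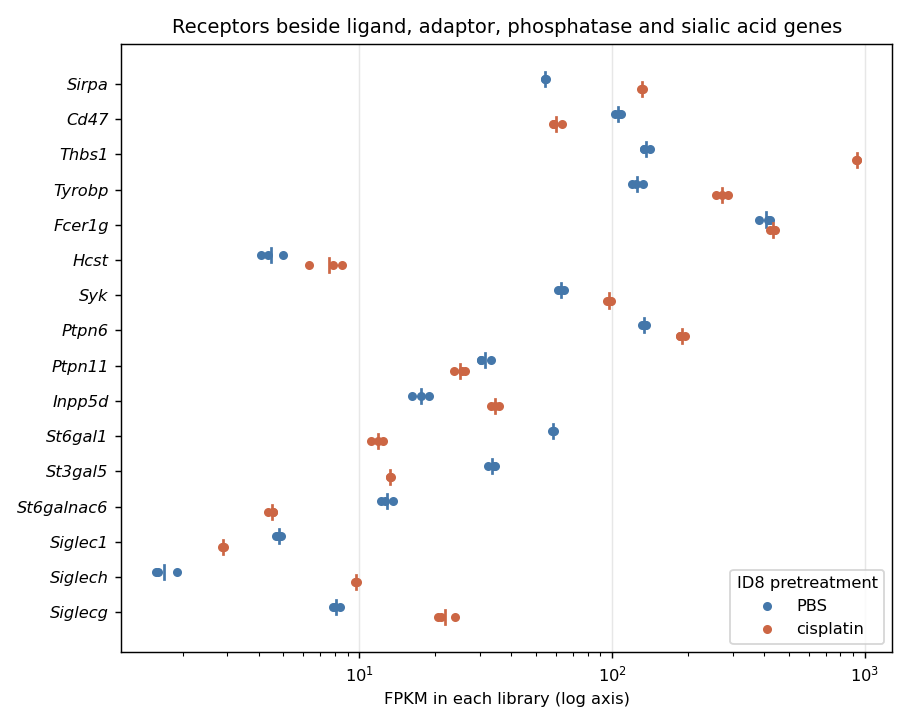
FPKM in each library (log axis, bars at the group means) of 4 receptor genes, the ligand genes Cd47 and Thbs1, the adaptor genes Tyrobp, Fcer1g and Hcst, Syk, the phosphatase genes Ptpn6, Ptpn11 and Inpp5d, and 3 sialyltransferase genes. Sirpa (54.4 and 132 FPKM) and Cd47 (106 and 60.3 FPKM) trade places between PBS and cisplatin, Fcer1g overlaps, and the sialyltransferase genes are lower with cisplatin.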

How the data were processed

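RNA from 3 cisplatin and 3 PBS co-culture libraries was poly-T selected and sequenced. The deposited table holds FPKM for 54532 genes. Per their methods, the authors aligned and counted reads with LifeScope and tested counts with DESeq2, whereas the submitters' processing notes list fastp, HISAT2 2.0.5 and featureCounts 1.5.0-p3 with mm10. All 33 members had the coordinates of GENCODE M21 (GRCm38).

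FPKM multiplied by gene length was a whole multiple of a fixed step (tolerance 0.1 read) for 100% of values under 200 reads, which gave the reads. Genes that reached 1 FPKM in 3 or more libraries were tested on log2(FPKM + 1) with limma 3.58.1 under R 4.3.3 (group as the only term, eBayes with a trend), with Benjamini-Hochberg adjustment over 13441 genes. The pan-leukocyte scaling used 11 genes, since Evi2b was listed at 0 throughout. The script was tested on simulated data. Every member with a mean of at least 1 FPKM in either group, 8 fixed partners, the 3 called genes of largest change in each list of partners, and the leading gene of each marker list are named. The members and lists were chosen with earlier results of these data known. Groups of 3 libraries were not searched for outlying samples.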

Additional observations from a re-analysis of the deposited data

How the results depend on the processing

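The 10 receptor genes called higher and 0 called lower were called the same way without a filter, with median-of-ratios scaling, without an eBayes trend and with any library left out. The labels give both groups the replicate numbers 1 to 3, but same-numbered libraries did not deviate together (correlations -0.10, -0.086 and -0.024), so the numbers were not taken as pairs, and a replicate block gave 10 higher and 0 lower. A pseudocount of 0.1 gave 11 higher, quantile normalisation 12 and voom on recovered reads 13, each with the 10 among them, the added genes being Cd300c, Cd300lf and Cd300ld, while all genes called higher went from 628 to 973, 835 and 1227. A filter at 5 FPKM left 18 members tested and 9 higher. The median log2 fold change of the members was 0.91, and 0.998 with a pseudocount of 0.1, 0.54 without a filter (all 33 members), 1.01 with a filter at 5 FPKM, 1.003 with quantile normalisation and 1.10 with voom, and ranged from 0.85 to 0.93 with a library left out, the lowest without cisplatin replicate 1. The cause was not tested.

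The split of the calls moved with some scalings of the libraries and with other settings. Calls higher were 29.3% of all calls, 30.4% with median-of-ratios scaling, 32.9% with a pseudocount of 0.1, 39.3% with quantile normalisation and 39.7% with voom. They were 2.53% with pan-leukocyte scaling and 1.69% with scaling by 4 Y-linked genes, which moved the median of all genes to -0.71 and -0.82. With pan-leukocyte scaling 3 members were called higher, of which 3 were activating and 0 inhibitory, and 1 lower (median 0.14). With Y-linked scaling 3 were higher and 2 lower (median 0.021), with 0 inhibitory and 3 activating genes higher and 1 activating gene, Cd300c2, lower (-1.01), while 87 of all genes were higher and 5074 lower. Under the 2 scalings the signalling partners had 0 higher and 5 lower in both, the ligands 1 higher in both and 13 and 14 lower, and the sialic acid genes 0 higher in both and 11 and 13 lower. At the adjusted p alone 19 members were higher (8 inhibitory) and 1 lower, beside 29 and 5 signalling partners, 7 and 14 ligand genes and 5 and 11 sialic acid genes. The sialic acid genes called higher were 2 with a pseudocount of 0.1 and with voom, and 0 with a filter at 5 FPKM.

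The sign reversed under pan-leukocyte and Y-linked scaling for Lilr4b (-0.33 and -0.46), Lilrb4a (-0.31 and -0.44), Siglece (-0.58 and -0.71), Pirb (-0.13 and -0.26), Trem3 (-0.73 and -0.86), Trem1 (-0.32 and -0.44), Siglecf (-0.14 and -0.20), Fcer1g (-0.76 and -0.89), Hcst (-0.084 and -0.20), Syk (-0.22 and -0.35) and Ptpn6 (-0.36 and -0.49). Under Y-linked scaling alone it reversed for Cd300lf (-0.0056) and Inpp5d (-0.0082). Cd300e, at -0.0082, was at 0.0010 with median-of-ratios scaling, 0.15 with quantile normalisation and 0.062 with voom, and between -0.090 and 0.13 with a library left out. By construction the pan-leukocyte and Y-linked scalings shift every gene down together. Depth limits the members under 1 FPKM, which rest on few reads per library.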

Other observations

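Transcripts of other blood cells were present in both groups. Mast cell and basophil markers summed to 119 to 127 FPKM with PBS and 254 to 273 FPKM with cisplatin, with 4 of 5 tested genes called higher. Their leading gene Prss34, a basophil protease, had means of 74.5 and 110 FPKM and was the 1 not called (log2 fold change 0.56, and -0.28 on the leukocyte scale). Mcpt4, a mast cell protease, was listed at 0 in every library. Conventional dendritic cell markers summed to 16.1 to 18.003 FPKM and 33.6 to 35.8 FPKM, with 3 of 4 tested genes called higher, led by Ccr7 (14.1 and 29.2 FPKM), which made up most of both sums. The fourth, Zbtb46, had means of 1.60 and 0.61 FPKM (log2 fold change -0.69, adjusted p = 0.00039). Flt3 (means of 0.55 and 2.14 FPKM) and Batf3 (0.37 and 1.83 FPKM), both called higher, passed the filter only through the cisplatin libraries, and Zbtb46 only through the PBS libraries. Xcr1, Clec9a, Cd209a and Itgae stayed under 1 FPKM in every library and were not tested. T and NK cell markers summed to 4.01 to 4.70 FPKM and 5.86 to 6.61 FPKM, led by Cd8a (1.68 and 2.53 FPKM), the 1 tested gene, which passed the adjusted p but not the fold change threshold (log2 fold change 0.40, adjusted p = 0.00594). Of the macrophage and neutrophil lists, the most abundant gene of the first, Lyz2, a lysozyme of macrophages and neutrophils, had means of 1161 and 3459 FPKM and that of the second, S100a9, a calprotectin chain of neutrophils, 3105 and 5233 FPKM.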
